A study of Mus musculus with 6 samples.

Results

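The genes described here are 33 genes of protein folding in the endoplasmic reticulum (ER) and of the unfolded protein response, taken by name from the 24493 gene symbols of the deposited table, all of which were found there. They comprise stress sensors and regulators, chaperones and their cofactors, disulfide isomerases, lectin chaperones, genes of ER-associated degradation and subunits of the translocation channel. Expression was measured by mRNA sequencing in mouse cells labelled Treg (regulatory T cells), which had been differentiated in culture from naive CD4 T cells of the spleen. Both groups carry that label and differ by genotype: 3 libraries were wild-type (WT) and 3 were Ifnar1-SA, an altered allele of the gene for a type I interferon receptor chain that is known from published work as a serine-to-alanine knock-in which hinders degradation of the receptor. The sources used here do not give the culture time, the cytokines added or the age of the mice, nor whether each library came from its own animal. A p-value therefore reflects the spread among these libraries, part of which may be technical. The question was whether the transcripts of this compartment differed between the genotypes.

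Secreted and membrane proteins enter the ER through the Sec61 channel, are folded there by chaperones and oxidised by disulfide isomerases, and are returned to the cytosol for degradation when folding fails. When unfolded proteins accumulate, IRE1 (Ern1) splices the Xbp1 mRNA, ATF6 is cut to release a transcription factor, and PERK slows translation and raises ATF4. The spliced XBP1 and ATF6 proteins switch on the chaperone and degradation genes. T cells use this compartment to make cytokines and surface receptors.

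Some of these genes share a promoter element of the unfolded protein response. The members were chosen by name for folding and for that response, so the share of the element among them is not independent of the choice. The ER stress response element (ERSE), through which ATF6 and XBP1 are known to act with NF-Y, is CCAAT followed by 9 bases and CCACG. It was searched on both strands in RefSeq promoters of build GRCm38.p6, which run from 250 bases before to 50 bases after a start site and were matched for 28 of the 33 genes. ERSE stood in 9 of these 28 genes (32.1%) and in 37 of 27025 genes with a promoter in the table (0.137%), so members made up 24.3% of all genes that hold it. The 9 were Hspa5, Hsp90b1, Pdia6, Calr, Canx, Creld2, Dnajc3, Syvn1 and Derl3. The related ERSE-II, ATTGG and CCACG separated by 1 base, stood in Herpud1 and Dnajb11 and in 12 genes of the table (0.0444%). The CCACG box alone, which is part of both elements, was in 24 of the 28 and in 35.5% of all genes, and the core TGACGTGG of the unfolded protein response element was in 0 of the 28 and in 0.714% of all genes. A match is a description of the letters and not a bound site.

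The windows below show the element in 1 gene or more of each role that holds it, 5′ to 3′ on the gene's strand, with the boxes in capitals. Where the boxes read CGTGG and ATTGG the element lies on the opposite strand. The windows lie at chr2:34772020-34772048 for Hspa5 (plus strand), chr10:86705528-86705556 and chr10:86705633-86705661 for Hsp90b1 (minus strand), chr12:17266486-17266514 for Pdia6 (plus), chr8:84847070-84847098 for Calr (minus), chr15:88819515-88819543 for Creld2 (plus), chr19:6046527-6046555 for Syvn1 (plus) and chr8:94386372-94386392 for Herpud1 (plus).
Hspa5: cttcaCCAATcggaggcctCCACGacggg
Hsp90b1, nearer the start site: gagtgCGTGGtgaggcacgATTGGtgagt
Hsp90b1, farther from the start site: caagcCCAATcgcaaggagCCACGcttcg
Pdia6: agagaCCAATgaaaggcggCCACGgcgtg
Calr: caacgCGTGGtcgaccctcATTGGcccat
Creld2: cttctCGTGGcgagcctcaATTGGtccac
Syvn1: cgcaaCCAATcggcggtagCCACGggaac
Herpud1 (ERSE-II): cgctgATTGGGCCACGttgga
In these windows the element ended between 25 bases (Syvn1) and 193 bases (the farther Hsp90b1 copy) before the RefSeq start site. In Hspa5 it ended 46 bases before that site. The GENCODE gene of Hspa5 starts farther upstream, at 34771970, so this window lies inside the gene as GENCODE annotates it.

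Expression was deposited as TPM, a share of transcripts corrected for length that sums to 1000000 in each library, so levels of different genes can be compared but sequencing depth is unknown. The defining Treg gene Foxp3 ranged from 0.276 to 0.697 TPM in WT and from 0.746 to 1.82 TPM in Ifnar1-SA, near the floor in both though the ranges did not overlap (two-sided exact permutation test, p = 0.1, which no 3 against 3 split can go below). Of the other Treg genes looked at, Ikzf2 was low as well, at 0.792 to 1.97 TPM over the 6 libraries. Il2ra, the interleukin-2 receptor chain, was at 359 to 444 TPM and Cd3e, a T cell receptor subunit, at 90.2 to 123 TPM. Ifnar1 averaged 31.1 ± 9.51 TPM in WT versus 25.1 ± 3.09 TPM in Ifnar1-SA (SD, n = 3), which does not check an allele that changes 1 amino acid. WT 2 and Ifnar1-SA 1 stood apart in each of 3 short transcripts looked at, not all in one direction. The small RNA gene Rn4.5s was at 3846 and 2978 TPM there and at 14249 to 20882 TPM in the other libraries, and the ribosomal protein gene Rps29 at 3486 and 2619 TPM against 8021 to 9981 TPM. Mir6236 was higher there, at 118851 and 95484 TPM against 65232 to 87650 TPM.

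The ER folding machinery was abundantly transcribed in both genotypes, and no member passed the test of a difference between them. Limma on log2(TPM + 1) called 0 of the 31 members with a mean of at least 1 TPM at an adjusted p of 0.05 (adjusted over all 12141 genes tested, of which 0.0577% were called), and the adjusted p was 0.9997 for each member. At an unadjusted p of 0.05 the count was also 0 of 31, against 3.12% of all genes tested. The 3 Ifnar1-SA libraries lay wholly above the 3 WT libraries for 0 members and wholly below them for 0, against 1.97% and 3.80% of all genes tested. The mean log2 value was higher in Ifnar1-SA for 11 members and lower for 20. That split was 17 and 14 with median-of-ratios scaling and 14 and 17 with quantile scaling, so it depended on the scaling. In these bulk libraries, fewer cells of a type and less RNA per cell cannot be told apart. The median difference (Ifnar1-SA minus WT) was −0.049 on the log2 scale over the members and −0.056 over all genes tested.

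The intervals describe the size of each difference on the log2(TPM + 1) scale, 1 gene at a time and not for all members jointly. The 95% intervals of the 31 members ran from −0.91 (Sel1l) to 0.74 (Edem2) at their outermost bounds. On this scale all 31 stayed within a difference of 1 in either direction, as did 86.03% of all genes tested. Low genes are less tightly bounded with a smaller pseudocount. For Ern1 the standard error was 0.38 with a pseudocount of 0.1, against 0.25 in the main fit. The median absolute difference was 0.10 for the members and 0.13 for all genes. The pooled SD between libraries of a genotype had a median of 0.23 for the members and 0.25 for all genes. For 5 members (Xbp1, Calr, Canx, Sel1l and Ssr1) the difference exceeded the gene's own pooled SD, which is 16.1% of the members against 21.3% of all genes tested.

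**Figure D1:**
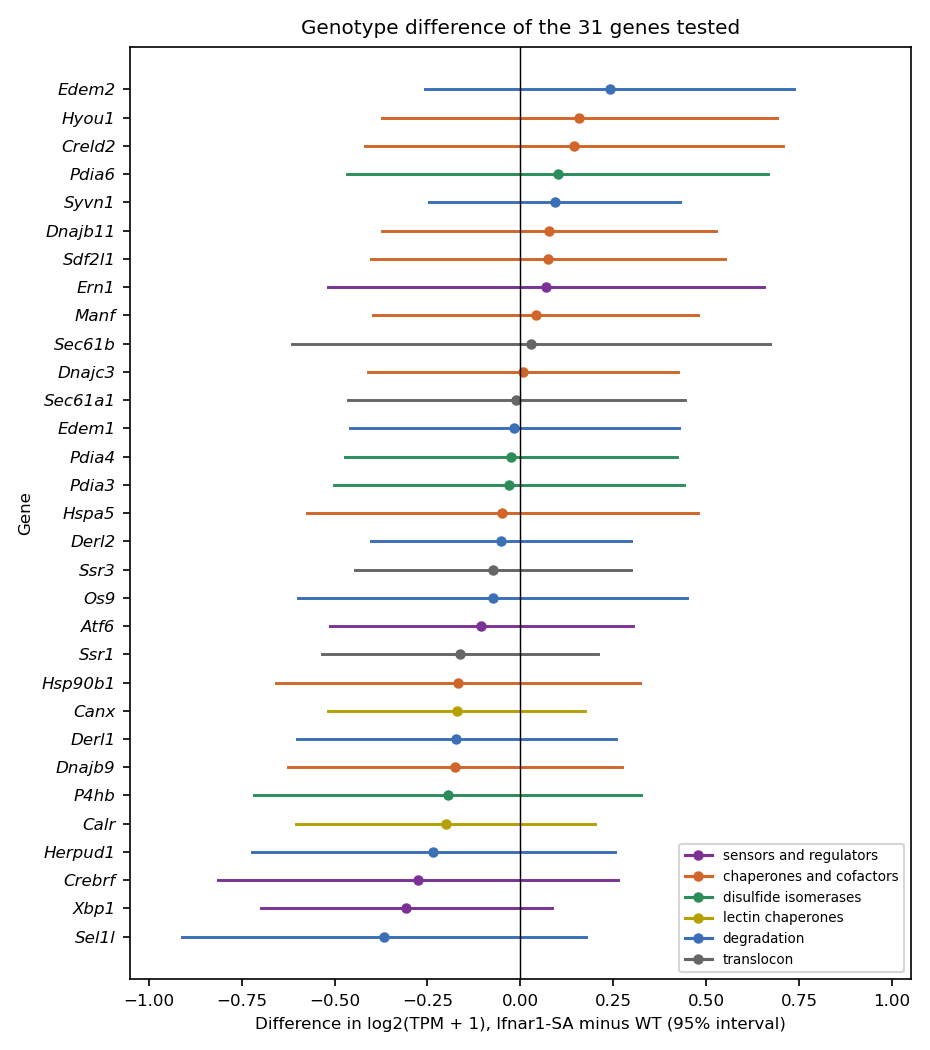
Each point is the difference in mean log2(TPM + 1), Ifnar1-SA minus WT, of 1 gene, with its 95% interval from limma (3 libraries per genotype) and coloured by role. All 31 intervals cross 0, from Sel1l at −0.37 to Edem2 at 0.24.

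Transcript levels of the members spanned the range from under 1 TPM to 591 TPM. Sec61b, a small subunit of the translocation channel, had the highest mean over the 6 libraries at 591 TPM, followed by the disulfide isomerase gene P4hb at 356 TPM and by Hspa5 at 337 TPM. In all, 8 members exceeded 200 TPM, and 11 lay above the 90th percentile of the genes tested. The 6 members under 5 TPM were Dnajb9, Atf6, Crebrf, Ern1, Wfs1 and Derl3. Of the sensors, Ern1 was at 1.66 TPM and Atf6 at 3.27 TPM. Summed over the 33 genes, the transcripts made up 0.368 ± 0.0420% of a WT library and 0.352 ± 0.0378% of an Ifnar1-SA library (SD, n = 3). By library the shares were 0.407%, 0.374% and 0.324% in WT 1 to 3 and 0.395%, 0.334% and 0.327% in Ifnar1-SA 1 to 3, so the genotypes overlapped.

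**Figure D2:**
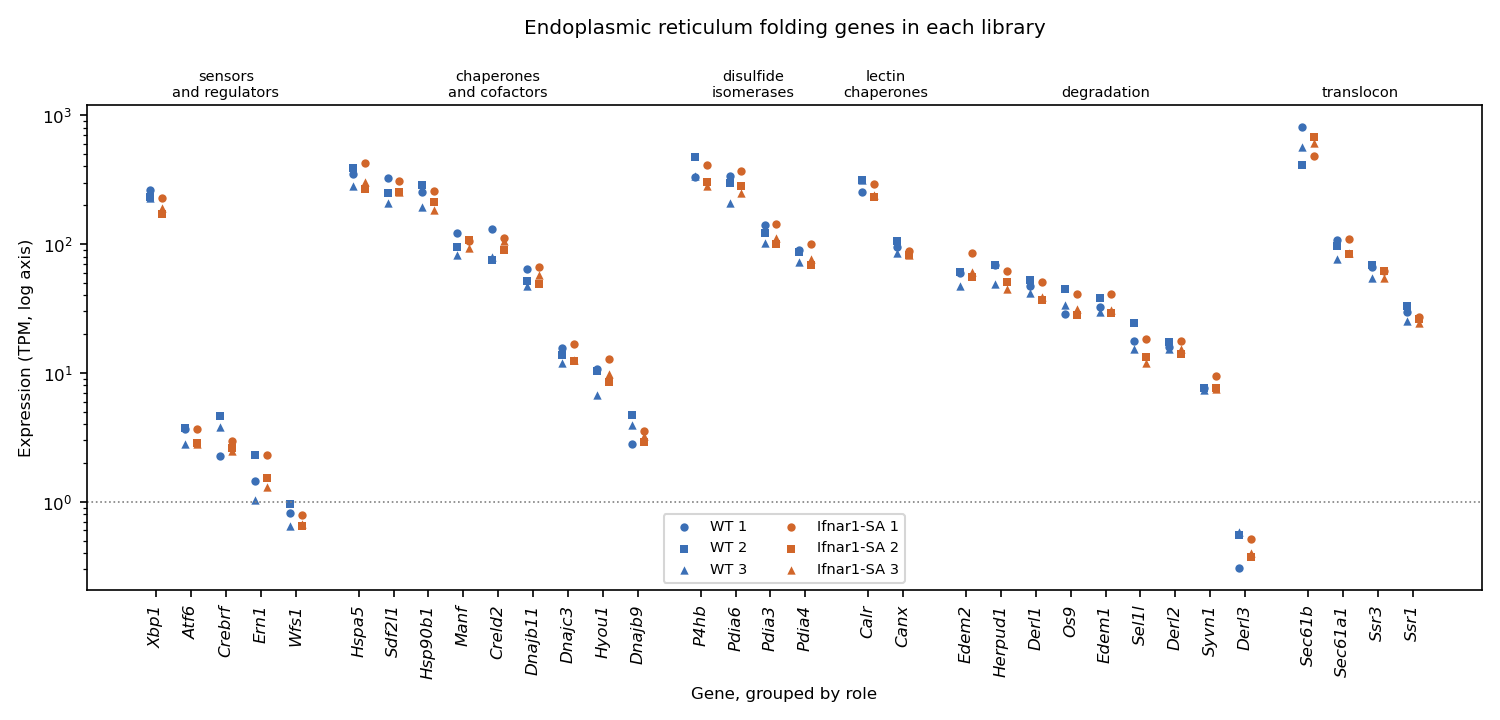
TPM on a log axis for each of the 33 genes, ordered by mean level within each role; blue symbols are WT and orange symbols Ifnar1-SA libraries, with 1 symbol shape per library number. The dotted line marks 1 TPM, below which Wfs1 and Derl3 lie, and the genotypes overlap for each gene.

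Among the sensors and regulators, the lowest p of all members belonged to Xbp1, the transcription factor gene whose mRNA IRE1 splices (chromosome 11, 5520659 to 5525893, plus strand). Xbp1 measured 263, 232 and 227 TPM in WT versus 227, 170.0 and 189 TPM in Ifnar1-SA. Ifnar1-SA 1 was level with WT 3, and the other Ifnar1-SA libraries were the lowest. The log2 difference of −0.31 had a standard error of 0.17 and a 95% interval from −0.70 to 0.09 (limma, unadjusted p = 0.107, adjusted p = 0.9997). Gene-level TPM adds up the transcripts of a gene, so these values do not show how much Xbp1 mRNA was spliced.

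Ern1, which encodes the IRE1 sensor, measured 1.46, 2.32 and 1.03 TPM in WT versus 2.30, 1.52 and 1.30 TPM in Ifnar1-SA. WT 2 and Ifnar1-SA 1 were the high libraries, and the log2 difference was 0.07 (95% interval −0.52 to 0.65). Atf6 measured 3.71, 3.77 and 2.79 TPM in WT versus 3.67, 2.84 and 2.81 TPM in Ifnar1-SA, where 1 library again matched the higher WT values. Crebrf, a regulator of the ER-linked factor CREB3, measured 2.26, 4.65 and 3.80 TPM in WT versus 2.98, 2.63 and 2.46 TPM in Ifnar1-SA, and WT 1 was the lowest library of all. Wfs1, an ER membrane protein gene whose loss causes Wolfram syndrome, was under the expression filter at 0.811 ± 0.155 TPM in WT versus 0.705 ± 0.0727 TPM in Ifnar1-SA (SD, n = 3; exact two-sided permutation p = 0.4, with 0.1 the smallest possible).

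Of the 9 luminal chaperones and cofactors 0 passed the test, and the differences were above 0 for 6 and below 0 for 3 (7 and 2 with median-of-ratios scaling), with a median of 0.04. Hspa5, which encodes BiP, the HSP70 chaperone that also holds the stress sensors inactive (chromosome 2, 34771970 to 34777547), measured 348, 389 and 284 TPM in WT versus 427, 268 and 303 TPM in Ifnar1-SA. The highest and the lowest library were both Ifnar1-SA, and the difference was −0.05 (95% interval −0.58 to 0.48). Hsp90b1, which encodes GRP94, the HSP90 of the ER (chromosome 10, 86690209 to 86705509), measured 254, 285 and 194 TPM in WT versus 256, 211 and 183 TPM in Ifnar1-SA, with a difference of −0.17 (−0.66 to 0.32). Both genotypes covered nearly the same range. Hyou1, a large HSP70-like chaperone that serves as exchange factor for BiP, measured 10.7, 10.3 and 6.70 TPM in WT versus 12.8, 8.52 and 9.74 TPM in Ifnar1-SA. Its difference of 0.16 was smaller than its pooled SD of 0.30.

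The J-domain proteins that bring substrates to BiP differed widely in level. Dnajb11 (ERdj3) averaged 54.5 ± 8.997 TPM in WT versus 57.5 ± 9.08 TPM in Ifnar1-SA (SD, n = 3). Dnajc3 (p58IPK), also known as an inhibitor of PERK, was at 13.8 ± 1.83 and 13.9 ± 2.39 TPM. Dnajb9 (ERdj4), a cofactor that restrains IRE1, measured 2.84, 4.72 and 3.97 TPM in WT versus 3.57, 2.91 and 3.25 TPM in Ifnar1-SA, so the lowest and the highest library were both WT. Sdf2l1, a partner of ERdj3, was at 261 ± 59.0 and 271 ± 30.9 TPM. The secreted stress proteins Manf and Creld2 were at 100.1 ± 20.3 and 94.8 ± 30.3 TPM in WT versus 101.8 ± 7.30 and 102 ± 11.2 TPM in Ifnar1-SA. For Creld2 the WT libraries alone ranged from 75.2 to 130 TPM, with WT 1 the highest, and enclosed all 3 Ifnar1-SA values.

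The disulfide isomerases, which form and rearrange disulfide bonds of the folding protein, gave 1 difference above 0 and 3 below (3 and 1 with median-of-ratios scaling, 2 and 2 with quantile scaling). Pdia6 measured 338, 298 and 209 TPM in WT versus 372, 282 and 249 TPM in Ifnar1-SA. The spread within each genotype was larger than the difference of 0.10 between them (95% interval −0.47 to 0.67). P4hb, which encodes protein disulfide isomerase itself, measured 331, 472 and 338 TPM in WT versus 413, 302 and 281 TPM in Ifnar1-SA, a difference of −0.20 (−0.72 to 0.32). Pdia3 (ERp57), the partner of the lectin chaperones, was at 121 ± 19.2 and 118 ± 22.1 TPM and Pdia4 (ERp72) at 82.4 ± 9.17 and 81.6 ± 15.97 TPM (WT and Ifnar1-SA, SD, n = 3). The differences of these 2 genes were −0.03 each and changed sign with median-of-ratios scaling.

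Calr and Canx encode calreticulin and calnexin, the lectins that hold glycoproteins during folding and help to load MHC class I. Calr (chromosome 8, 84841850 to 84846934, minus strand) measured 252, 315 and 316 TPM in WT versus 294, 232 and 242 TPM in Ifnar1-SA. WT 1 lay below Ifnar1-SA 1, and the difference of −0.20 had a standard error of 0.17 (limma, unadjusted p = 0.275, adjusted p = 0.9997). Canx (chromosome 11, 50293961 to 50325673) measured 95.2, 105 and 85.6 TPM in WT versus 88.5, 82.4 and 81.8 TPM in Ifnar1-SA. Only Ifnar1-SA 1 exceeded the lowest WT library, and the difference of −0.17 had a standard error of 0.15 (limma, unadjusted p = 0.281, adjusted p = 0.9997). Canx had a pooled SD of 0.11, against a median of 0.23 for the members.

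In ER-associated degradation, the outermost differences of all members pointed in opposite directions. Sel1l, the adaptor of the ubiquitin ligase that extracts misfolded proteins (chromosome 12, 91806043 to 91849157, minus strand), measured 17.6, 24.2 and 15.3 TPM in WT versus 18.3, 13.2 and 12.02 TPM in Ifnar1-SA. WT 2 was the highest and Ifnar1-SA 1 exceeded both other WT libraries, and the difference of −0.37 had a standard error of 0.23 (limma, unadjusted p = 0.155, adjusted p = 0.9997). Syvn1 (HRD1), the ligase that Sel1l serves, averaged 7.55 ± 0.187 TPM in WT versus 8.16 ± 1.07 TPM in Ifnar1-SA. Edem2, which starts the trimming of mannose from condemned glycoproteins (chromosome 2, 155701677 to 155729475, minus strand), measured 59.6, 60.4 and 47.1 TPM in WT versus 84.7, 55.1 and 60.3 TPM in Ifnar1-SA. Its difference of 0.24 with a standard error of 0.21 (limma, unadjusted p = 0.290, adjusted p = 0.9997) went with 1 high library, Ifnar1-SA 1, and was 0.058 without it.

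Herpud1, a stress-induced membrane protein of the ligase complex, measured 68.6, 68.8 and 48.8 TPM in WT versus 62.3, 50.6 and 44.5 TPM in Ifnar1-SA. The ranges overlapped over most of their length. Edem1, a mannosidase-like relative of Edem2, was at 33.6 ± 4.38 and 33.4 ± 6.34 TPM (WT and Ifnar1-SA, SD, n = 3). Os9, a lectin that recognises trimmed glycans, was at 35.6 ± 8.13 and 33.6 ± 6.58 TPM. The derlins, membrane proteins of the extraction channel, followed the order Derl1, Derl2 and Derl3 in level. Derl1 was at 47.3 ± 5.69 and 42.1 ± 7.42 TPM and Derl2 at 16.3 ± 1.04 and 15.8 ± 1.87 TPM. Derl3, known as abundant in plasma cells, was under the filter at 0.308 to 0.584 TPM over the 6 libraries (exact two-sided permutation p = 0.8).

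The translocation genes included Sec61b, the member with the highest mean level. It measured 804, 409 and 568 TPM in WT versus 478, 681 and 608 TPM in Ifnar1-SA. WT 2 and Ifnar1-SA 1, the libraries low in Rn4.5s, were its lowest, whereas most other members were high there. The part of short transcripts in this was not tested. The difference was 0.03 (95% interval −0.61 to 0.67), and the pooled SD of 0.39 on the log2(TPM + 1) scale was the largest of the 31 members. As a ratio of the highest to the lowest library, Sec61b at 1.97 came after Ern1 at 2.25, Crebrf at 2.05 and Sel1l at 2.02. Sec61a1, which encodes the pore-forming subunit, averaged 93.5 ± 15.6 TPM in WT versus 92.6 ± 14.2 TPM in Ifnar1-SA (SD, n = 3). Ssr1 and Ssr3, subunits of the translocon-associated protein complex, were at 29.3 ± 4.07 and 62.9 ± 7.66 TPM in WT and at 26.0 ± 1.46 and 59.5 ± 4.03 TPM in Ifnar1-SA.

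The members shared their variation by library with the whole table, and no test of it was made. WT 2 or Ifnar1-SA 1 held the highest value of 25 of the 31 members (80.6%), and the same was true of 70.9% of all genes tested. WT 3 held the lowest value for 12 members (38.7%, against 22.1% of all genes), and Ifnar1-SA 1 held it for 0. The median deviation of the members from their own means, on the log2 scale, was 0.11, 0.17 and −0.17 in WT 1 to 3 and 0.21, −0.15 and −0.12 in Ifnar1-SA 1 to 3. The same medians over all genes were 0.0030, 0.15, −0.068, 0.17, −0.11 and −0.14. After subtracting the latter, WT 1 stood highest at 0.11 and WT 3 lowest at −0.098, and the Ifnar1-SA libraries lay between them, from −0.047 to 0.039.

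**Figure D3:**
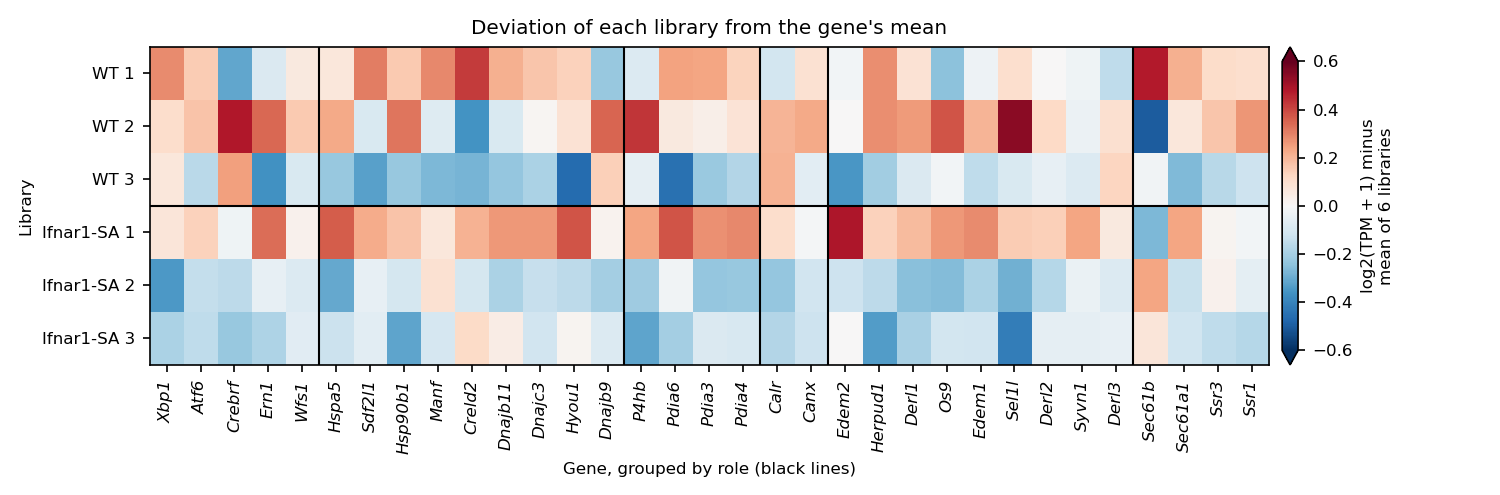
Rows are the 6 libraries and columns the 33 genes by role; colour gives log2(TPM + 1) minus the gene's mean over the 6 libraries. Most columns are red in Ifnar1-SA 1 and blue in WT 3, Ifnar1-SA 2 and Ifnar1-SA 3. Exceptions include Sec61b and, in WT 3, Calr, Crebrf and Dnajb9.

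Members with an ERSE in the window and the other matched members both had median deviations above 0 in Ifnar1-SA 1, WT 2 and WT 1. Both had medians below 0 in the other 3 libraries, whose order differed between these lists. The 8 tested genes with the element had a median log2 difference of −0.022 between the genotypes, with 4 above 0 and 4 below. The 18 without it had a median of −0.063, with 5 above 0 and 13 below. Of all genes tested, 37.1% were above 0. With median-of-ratios scaling Hspa5, which holds the element, rose above 0, as did Pdia3, Pdia4, Edem1 and Derl2, which do not. Both splits therefore depended on the scaling. The median deviation of the ERSE genes was 0.12, 0.13 and −0.21 in WT 1 to 3 and 0.22, −0.11 and −0.13 in Ifnar1-SA 1 to 3. For the members without the element these values were 0.10, 0.19, −0.14, 0.19, −0.18 and −0.11. No test was made of the difference between these lists.

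**Figure D4:**
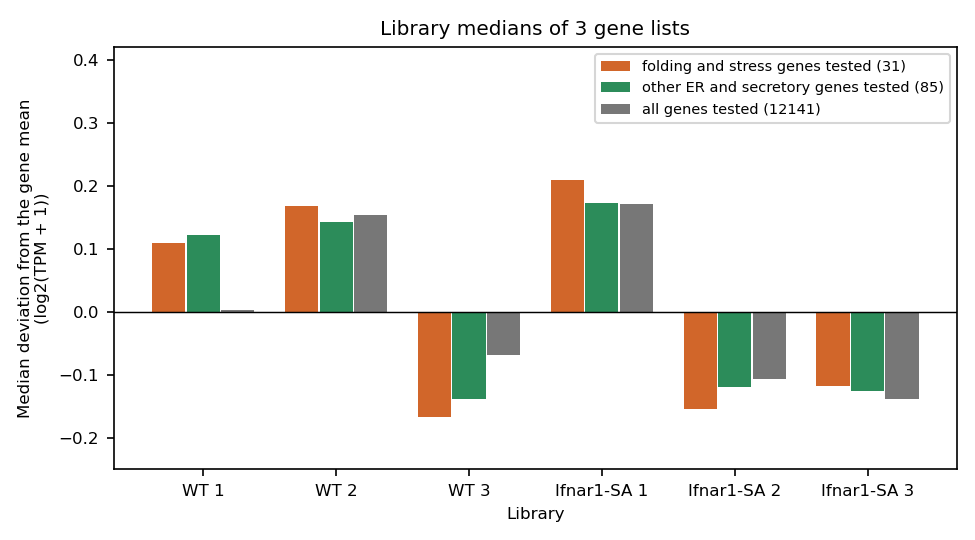
Bars give, for each library, the median deviation of log2(TPM + 1) from the gene mean for the 31 folding and stress genes, the 85 other ER and secretory genes and all 12141 genes tested. The lists share the sign in each library, with Ifnar1-SA 1 the highest, and in WT 1 the ER lists lie at 0.11 and 0.12 beside 0.0030 for all genes.

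Other genes of the ER and early secretory pathway were examined as a list of 88 genes, of which 85 were tested. At an adjusted p of 0.05, 0 of these were called by limma, against 0.0577% of all genes tested, and 2 had an unadjusted p under 0.05, against 3.12% of all genes. The differences were above 0 for 33 genes and below 0 for 52, with a median of −0.053 beside −0.056 for all genes, and the split was 45 and 40 with median-of-ratios and 42 and 43 with quantile scaling. These counts and medians were near those of the 31 members.

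The PERK and ATF4 arm held both genes with an unadjusted p under 0.05. All 10 of its genes had a lower mean log2 value in Ifnar1-SA (9 with quantile scaling, where Eif2ak3 was higher), as had 7642 of the 12141 genes tested. The median of the arm was −0.47, but 0 passed the adjusted test, and the direction of amino acid stress genes was already known from these samples. Ddit3, the transcription factor CHOP, measured 218, 525 and 382 TPM in WT versus 245, 199 and 158 TPM in Ifnar1-SA (limma, unadjusted p = 0.043, adjusted p = 0.9997). WT 1 lay among the Ifnar1-SA values. Trib3, a pseudokinase gene induced by ATF4 and CHOP, measured 39.6, 58.4 and 30.4 TPM in WT versus 33.1, 22.5 and 14.8 TPM in Ifnar1-SA (limma, unadjusted p = 0.040, adjusted p = 0.9997). Eif2ak3, which encodes PERK, averaged 2.40 ± 0.716 TPM in WT versus 2.24 ± 0.304 TPM in Ifnar1-SA (SD, n = 3). Beside the median of −0.47 in this arm, the median was 0.04 for the chaperones and −0.063 for the degradation genes among the members, and the difference between these lists was not tested. In the same order, the medians were −0.41, 0.10 and −0.0035 with median-of-ratios scaling. With quantile scaling they were −0.45, 0.061 and −0.017.

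In the other groups of the list the genes of lowest p were as follows. Among 17 further folding enzymes, the oxidase gene Ero1l, which reoxidises disulfide isomerase, averaged 640.1 ± 164 TPM in WT versus 468 ± 85.8 TPM in Ifnar1-SA, and the glucosidase gene Mogs at 6.07 ± 2.15 and 8.50 ± 2.31 TPM (SD, n = 3). Among the other stress sensors, Creb3l1 was at 3.33 ± 0.720 and 2.86 ± 0.297 TPM and Tmbim6 at 109 ± 7.07 and 118 ± 15.2 TPM. Neither group had a gene past the threshold. Among the degradation genes, the ubiquitin-conjugating enzyme gene Ube2j1 was at 20.02 ± 1.78 and 17.5 ± 2.09 TPM and Ubxn4 at 34.2 ± 3.37 and 30.3 ± 2.74 TPM. Among translocation and signal peptidase genes, Sec62 was at 25.4 ± 5.36 and 19.4 ± 5.61 TPM and Sec11c at 184 ± 69.0 and 204 ± 15.0 TPM. Dad1, a subunit of the oligosaccharyltransferase that attaches glycans, measured 1141, 1115 and 1053 TPM in WT versus 978, 986 and 1037 TPM in Ifnar1-SA. It was the 1 gene of the 85 whose libraries did not overlap, against 3.80% of all genes tested that lay wholly lower in Ifnar1-SA and 1.97% wholly higher, with an unadjusted p of 0.301 and an adjusted p of 0.9997 (limma). In the same enzyme Stt3b was at 25.03 ± 3.79 and 20.8 ± 4.91 TPM, and among traffic genes Mcfd2 was at 17.5 ± 4.69 and 14.8 ± 2.995 TPM and Sec13 at 170 ± 30.5 and 188 ± 35.5 TPM.

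Markers of plasma cells, a secretory cell type, differed widely in level. Jchain, Tnfrsf17 and Derl3 were at most 0.836, 0.645 and 0.584 TPM over the 6 libraries. Sdc1, at 14.3 to 21.5 TPM, and Mzb1, at 3.17 to 13.0 TPM, were higher. Irf4 and Prdm1, which belong to activated T cells as well, were at 37.0 to 58.1 and 2.78 to 6.62 TPM. The summed level of these 7 plasma cell genes was 71.3 to 85.7 TPM in WT versus 64.9 to 87.1 TPM in Ifnar1-SA. The sums of the 6 B cell genes (7.56 to 17.8 and 8.29 to 12.6 TPM) and of the 7 macrophage and dendritic cell genes (8.39 to 13.9 and 10.1 to 11.9 TPM) overlapped as well. The 7 neutrophil and mast cell genes summed to 7.34 to 10.7 TPM in WT versus 17.2 to 22.6 TPM in Ifnar1-SA. Of this, Ly6g made up 6.46 to 6.55 TPM in WT and 14.2 to 21.4 TPM in Ifnar1-SA. S100a9 was at 0.615 to 2.87 TPM over the 6 libraries, and Elane, Mpo, S100a8, Cpa3 and Mcpt4 were at most 0.504 TPM. The 7 erythroid and platelet genes summed to at most 1.95 TPM. The sums of the 4 CD4 T cell genes found, the 5 Treg genes and the 6 CD8 T and NK cell genes overlapped too, at 1333 to 1454, 3498 to 4168 and 916 to 2685 TPM in WT versus 1410.2 to 1629, 3585 to 4428 and 1677 to 2496 TPM in Ifnar1-SA. Most of the Treg sum came from Tnfrsf18 (2371 to 3238 TPM), and nearly all of the CD8 T and NK cell sum from Nkg7 (896 to 2672 TPM). Within the Treg list Ctla4, an inhibitory receptor gene, did not overlap, at 482 to 698 TPM in WT versus 762 to 876 TPM in Ifnar1-SA. Neither did Foxp3, which was near the floor. Of all genes tested, 1.97% lay wholly higher in Ifnar1-SA. The part of these cells in the values above was not tested.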

How the data were processed

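The authors deposited a single TPM table by gene symbol, whose 6 columns were tied to samples through their titles. Salmon and the builds mm10 and GRCm38 are named in the submitters' processing notes, and the sources used here give neither its version nor the annotation. TPM holds no counts, so no count model and no counting interval was used, and exact depth is unknown.

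Genes averaging at least 1 TPM over all libraries (12141) were tested on log2(TPM + 1) with limma 3.58.1 in R 4.3.3 (intensity trend, two-sided, Benjamini-Hochberg adjustment over all genes tested, threshold 0.05, no replicate block). This scale makes the changes of low genes look smaller than they are. Genes under the filter got an exact permutation test over libraries. The fit was first tested on simulated data. Members, their roles, the list of 94 other symbols (6 of them alternative names not found) and the markers were chosen with earlier results of these data known. All 33 members are named. From the other groups the 2 genes of smallest p are named, beside Eif2ak3, which was chosen after its values were seen, as were the short transcript Rn4.5s and the marker genes singled out. Gene positions are from GENCODE M21 (GRCm38). Promoters are RefSeq sequences of GRCm38.p6, and for 25 of 28 members the bases after the start site were found in a GENCODE transcript of that gene. Alternatives were pseudocounts of 0.1 and 0.5, no filter or one at 5 TPM, scaling by median of ratios or quantiles, no trend, robust empirical Bayes, array weights, a replicate block, and libraries left out. Python 3.11.15, pandas 2.3.3, numpy 2.4.6 and matplotlib 3.10.9 were used for tables and figures.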

Additional observations from a re-analysis of the deposited data

How the results depend on the processing

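Under each of the 17 alternatives limma called 0 members and 0 of the other ER and secretory genes, and the lowest adjusted p of a member was 0.443. With a replicate block the count of members called was 0, and 0 genes were called over the whole table against 7 without it (399 and 379 at an unadjusted p under 0.05). Deviations of same-numbered libraries correlated at r = −0.11, −0.11 and 0.15 across genes, and those of WT 2 and Ifnar1-SA 1 at 0.25. The numbers were not treated as pairs, though these few values cannot decide whether the libraries were paired. Calls over all genes also ranged from 0 with no filter or after removing both WT 2 and Ifnar1-SA 1 (718 and 366 at an unadjusted p under 0.05) to 28 without WT 1, and were 1 with a mean of at least 5 TPM, 15 and 14 with pseudocounts of 0.1 and 0.5, 12 with array weights or robust empirical Bayes, and 15 to 22 without any 1 of the other libraries. Members with an unadjusted p under 0.05 numbered 1 with median-of-ratios scaling (Edem2), 1 with quantile scaling (Xbp1), 2 with array weights (Xbp1 and Calr), 1 after removing both WT 2 and Ifnar1-SA 1 (Xbp1), and 0 to 1 without 1 library (Crebrf without WT 1, Xbp1 without Ifnar1-SA 1). The median difference of the members stayed within 0.040 of that of all genes, and 4 to 17 members were above 0.

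Of 523 differences of single members under an alternative, 467 kept their sign and 56 took the other sign. These belonged to 17 members whose main difference was at most 0.16, and the lowest p among them was 0.413. The cause was not tested. With median-of-ratios scaling they were 0.014 for Hspa5, 0.031 for Pdia3, 0.037 for Pdia4, 0.045 for Edem1, 0.0070 for Derl2 and 0.052 for Sec61a1. With quantile scaling they were 0.0039 for Pdia4, 0.030 for Edem1, 0.0049 for Derl2, 0.0053 for Sec61a1 and −0.023 for Sec61b, and with array weights −0.014 for Dnajc3 and 0.013 for Sec61a1. With WT 2 and Ifnar1-SA 1 left out they were −0.062 for Dnajb11, −0.11 for Dnajc3, −0.044 for Sdf2l1, −0.012 for Manf, −0.067 for Creld2, −0.0070 for Pdia6 and −0.071 for Sec61b. Leaving out each library in turn gave −0.24 to 0.093 for Hspa5, −0.17 to 0.080 for Pdia3, −0.18 to 0.083 for Pdia4, −0.099 to 0.25 for Pdia6, −0.16 to 0.082 for Edem1, −0.22 to 0.094 for Os9 and −0.14 to 0.020 for Derl2. It gave −0.15 to 0.094 for Sec61a1, −0.21 to 0.27 for Sec61b, −0.096 to 0.26 for Ern1, −0.033 to 0.28 for Hyou1, −0.035 to 0.20 for Dnajb11, −0.12 to 0.092 for Dnajc3, −0.070 to 0.25 for Sdf2l1, −0.084 to 0.20 for Manf and −0.0012 to 0.14 for Syvn1. With 3 libraries per genotype and unknown depth, true differences within the intervals given may have gone uncalled. The intervals are not adjusted for the number of genes tested, so a larger difference could be missed as well. Ddit3, at −0.83 with a 95% interval from −1.63 to −0.034, had an adjusted p of 0.9997 (limma).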
